A study of Arabidopsis thaliana with 4 samples.

Results

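The chloroplast and the mitochondrion of Arabidopsis thaliana each keep a small genome, and the loci of these genomes were read out of a deposited table of transcript levels. They were taken as all rows whose locus identifier starts with ATCG (chloroplast, 133 loci) or ATMG (mitochondrion, 146 loci), together 279 of 32678 loci. RNA was sequenced from whole plants of wild type (WT) and of 35S:TEM1, a line named for the strong 35S promoter of cauliflower mosaic virus and for TEM1, a transcription factor gene of the RAV family. Each genotype had 2 samples, each pooled from 20 plants that were 10 days old, grown in LD at 22 °C and harvested at ZT18. The labels name no ecotype, agent or other allele, and do not say whether 35S:TEM1 is 1 transgenic line or several. The comparison asks how the transcripts of each organelle genome differ between the genotypes. Nothing in the labels says that the samples of a genotype came from separate growth rounds, and the p-values below rest on nothing more than how far these pools lie apart.

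The chloroplast genome encodes core subunits of both photosystems, of the cytochrome b6f complex, of the ATP synthase, of Rubisco and of an NADH dehydrogenase-like complex, and also rRNAs, tRNAs and ribosomal proteins. Its genes are transcribed by a bacterial-type polymerase that the genome itself encodes, which needs sigma factors from the nucleus, and by a phage-type polymerase from the nucleus. The mitochondrial genome encodes subunits of the respiratory chain, proteins of cytochrome c maturation, ribosomal components and many open reading frames of unknown function, and phage-type polymerases transcribe it. Most organelle transcripts of plants carry no long, stable poly(A) tail. How RNA was selected for these libraries is not given in the sources used here.

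The deposited values are RPKM (reads per kilobase of locus, scaled to a common library size). For all 24315 loci above 0, the values of the 4 samples were whole numbers of reads, within 0.0001 of a read, at 1 locus length and 1 total per library. The totals were 20183817 and 27807143 reads for 35S:TEM1 replicates 1 and 2 and 30425737 and 24140725 for WT replicates 1 and 2. Reads below are the smallest whole numbers that the values allow, or 2 times these where only that length matched a gene (rbcL, ndhK and orf121A), so for a locus without a matched gene they are a lower bound. The same step gave each locus its length in bases, and a locus was named where this length was that of 1 reference gene only. By this rule 60 of the 94 chloroplast loci above 0 and 19 of the 42 mitochondrial ones received a name. Another 31 chloroplast and 11 mitochondrial loci had a length that several genes or loci share, and are given by identifier with the genes they could be. The chloroplast names fell in the order of the reference genome in 54 of 55 neighbouring pairs of protein genes. Notes in the reference named 5 of the loci independently, with the same name for 4, and the other one is left unnamed. ATCG00430 has the length of ndhK and lies by number between the loci named ndhJ and ndhC. Its note calls it a photosystem II protein G, so its place in the NADH dehydrogenase group rests on length and number alone.

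Large stretches of both genomes had no reads. In the chloroplast 39 of 133 loci were listed at 0 in all 4 samples, and 19 of them formed an unbroken run from ATCG00830 to ATCG01000, with another run of 13 from ATCG01190 to ATCG01310. In the mitochondrion 104 of 146 loci were listed at 0, in runs of 36 (ATMG00730 to ATMG01080) and 35 (ATMG00170 to ATMG00500) among others. A zero here is not evidence that a gene was silent, because genes that every plant cell uses were among them. ATMG00220, for apocytochrome b of respiratory complex III, and ATMG00730, for cytochrome c oxidase subunit 3, were both listed at 0, as were ATMG01190, for subunit 1 of the ATP synthase, and ATMG00290, for ribosomal protein S4.

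All 10 loci at 0 that a reference note ties to a gene lay in repeated sequence. Words of 31 bases were counted over the whole reference assembly, and for the mitochondrial genes cob, cox3, atp1 and rps4 all words (100%) also occurred on chromosome 2, which carries a copy of much of the mitochondrial genome. Of 58 mitochondrial rRNA, tRNA and protein genes of the reference, 42 had at least 95% of their words at another place. By contrast the share was 3.1% for rrn18 and 0.9% for cox1, both of which had reads. Repeats did not always go with a zero, since nad4 (100%), nad7 (97.0%), orf127 (100%) and orf294 (96.4%) were named for loci with reads, at most 4 in a library. In the chloroplast, ycf2 and rrn23S of the inverted repeat had 100% of their words elsewhere. The single rRNA locus of the chloroplast with reads, ATCG01180, which has the length of rrn23S, held 1 and 2 reads in 35S:TEM1 and 0 in each WT library. No locus with reads carried the length of ycf2 or of matK, the chloroplast maturase, although matK had only 1.1% repeated words. This does not show that matK had no reads, because 3 chloroplast loci with reads matched no reference gene by length. The nuclear loci AT2G07 of the chromosome 2 region were similar, with 159 of 197 listed at 0. How the authors counted reads that map to several places is not given in the sources used here, and its part in the zeros was not tested. The values below therefore describe the loci with reads, and the reference genes they were named for had a median of 0% (chloroplast) and 3.1% (mitochondrion) repeated words.

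**Figure D1:**
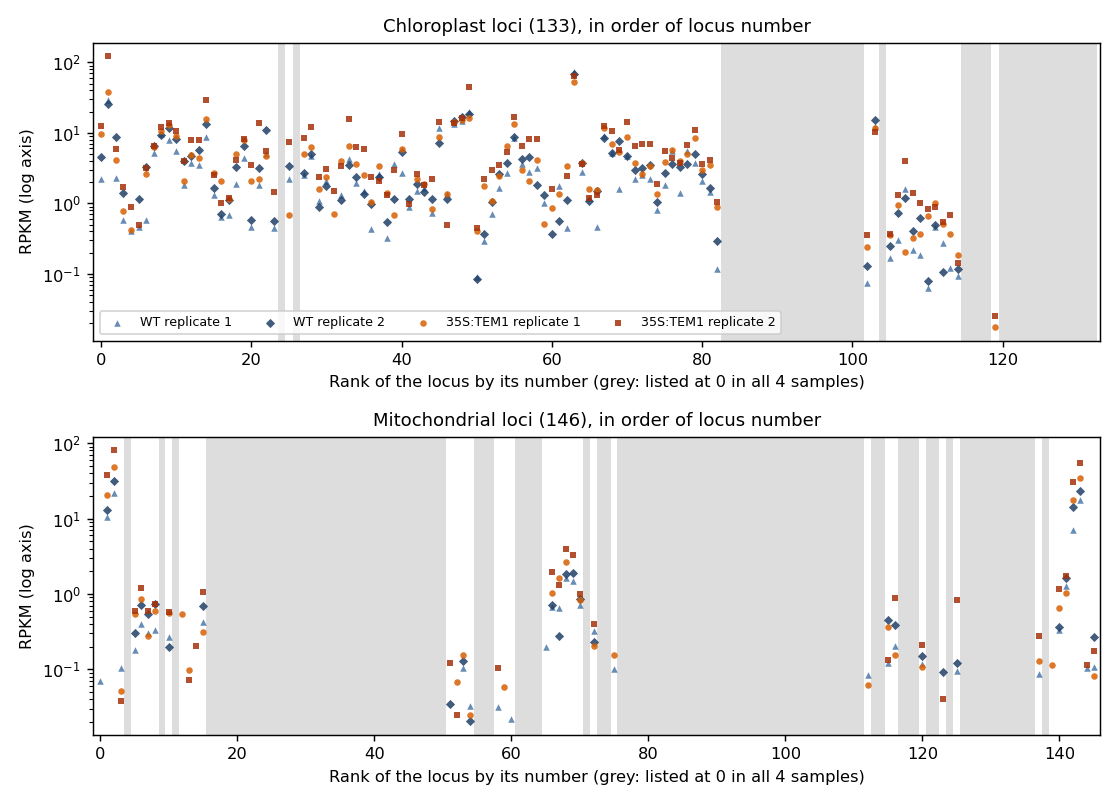
RPKM (log axis) of every chloroplast locus (upper panel) and mitochondrial locus (lower panel) in order of locus number, with 1 point per sample above 0 and grey bands for loci at 0 in all 4 samples. The runs of 19 and 13 chloroplast loci and of 36 and 35 mitochondrial loci at 0 stand out as bands, and 35S:TEM1 replicate 2 (red squares) is the highest sample at most mitochondrial loci of the upper range.

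As counted, the loci of both genomes made up a very small part of each library. Many loci were listed at 0, so the shares cover the counted loci and not all transcripts of a genome. Chloroplast loci took 0.0637% and 0.1001% of the summed RPKM in 35S:TEM1 replicates 1 and 2, against 0.0503% and 0.0568% in WT replicates 1 and 2. Mitochondrial loci took 0.0190% and 0.0315% in 35S:TEM1 compared with 0.00935% and 0.0129% in WT. For each genome both 35S:TEM1 samples lay above both WT samples. The mean chloroplast share was 0.0819% ± 0.0257 in 35S:TEM1 and 0.0536% ± 0.00459 in WT (SD, n = 2 each), a 1.53-fold difference. The mean mitochondrial share was 0.0253% ± 0.00884 against 0.0111% ± 0.00249, a 2.28-fold difference. An exact 2-sided permutation test gave p = 0.333 for each, the smallest p that 2 against 2 samples can give, so no share could pass a threshold of 0.05.

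Counted in reads, the chloroplast loci held 5266 reads (0.0261% of the library, 95% Wilson interval 0.0254% to 0.0268%) and 12722 reads (0.0458%) in 35S:TEM1 replicates 1 and 2. In WT they held 5983 reads (0.0197%) and 5309 reads (0.0220%). Mitochondrial loci held 2924 and 6849 reads in 35S:TEM1 and 2287 and 2352 in WT. The intervals cover counting error only. They are far narrower than the gap between the 35S:TEM1 samples, since the read share of replicate 2 was 1.75 times that of replicate 1 in the chloroplast and 1.70 times in the mitochondrion. The WT samples differed by 1.12 and 1.30 times.

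35S:TEM1 replicate 2 thus stood apart. Without it the chloroplast share of summed RPKM was 1.19 times the WT mean, and without replicate 1 it was 1.87 times. For the mitochondrion the same ratios were 1.71 and 2.84. In a bulk sample, more or larger organelles, other proportions of cells, more RNA per organelle and a difference in RNA selection between libraries cannot be told apart.

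**Figure D2:**
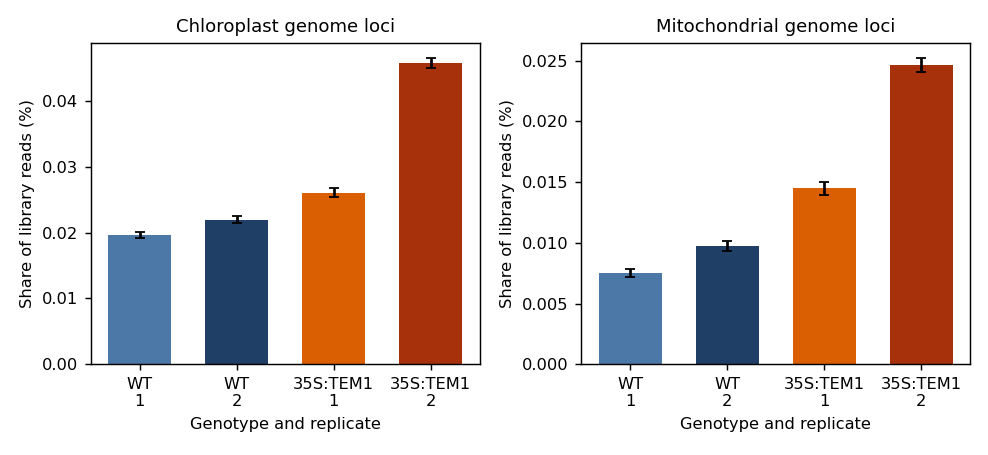
Share of library reads (%) on chloroplast loci (left) and mitochondrial loci (right) in each of the 4 samples, with 95% Wilson intervals that cover counting error only. 35S:TEM1 replicate 2 is highest in both panels (0.0458% and 0.0246%), and 35S:TEM1 replicate 1 (0.0261% and 0.0145%) lies above both WT samples.

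TEM1 itself stood at 784 and 827 RPKM in the 35S:TEM1 samples and at 16.3 and 30.3 in the WT samples (limma adjusted p = 0.000247). Some nuclear RNAs moved with the organelle reads and others did not. The 4 nuclear rRNA loci of the reference held 73.1 and 157 RPM (reads scaled to library size as in RPKM, without the length) in 35S:TEM1 compared with 61.6 and 60.2 in WT, so that replicate 2 was again highest, and the 13 nuclear snRNA loci had 1.39 and 2.77 against 1.35 and 1.53. Small nucleolar RNA loci did not single out replicate 2, with 25.3 and 24.7 against 14.2 and 22.1 over 71 loci, nor did nuclear tRNA loci, with 2.03 and 1.40 against 1.48 and 1.74. Few reads were behind 2 of these classes, with 28, 77, 41 and 37 for snRNA and 41, 39, 45 and 42 for tRNA, in the same order. In the test described next, 18.3% of all tested loci were called higher in 35S:TEM1 and 7.37% lower. Root markers were higher for all 5 tested of 7, with a summed RPKM of 49.2 to 52.4 against 25.0 to 25.1 in WT, and none was at 0. Leaf epidermis markers fell for 2 of 3, with 195 to 220 against 300 to 331 in sum. Of 5 mesophyll markers 3 rose and 0 fell, although their sum, which RBCS1A dominates, was 24742 to 28834 against 30265 to 31533. The part of these RNAs and cell types in the organelle differences was not tested.

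The genotypes were compared locus by locus with limma on log2(RPKM + 1), fitted on all 17746 loci of the table with a mean RPKM of at least 1 and with Benjamini-Hochberg adjustment over all of them. Differences below are the 35S:TEM1 mean less the WT mean on this scale, with standard errors (SE). A locus is called where the adjusted p is under 0.05. The scale understates changes at low levels. Of all loci tested, 18.3% were called higher and 7.37% lower in 35S:TEM1, or 25.7% in either direction. The higher share was similar for nuclear loci of 1 to 5 RPKM (18.6%), 5 to 20 RPKM (18.8%) and 20 to 100 RPKM (18.3%). The median difference of all tested loci was 0.12.

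The mean was higher in 35S:TEM1 at 65 of 72 tested chloroplast loci, and 16 passed the test. How many of all tested loci had a higher mean was not counted, but the median difference of all tested loci was 0.12. Of the 94 chloroplast loci above 0, 72 reached the tested level, and 16 of these were called higher (22.2%), 0 lower, and 56 did not pass. With limma 33 of the 72 had an unadjusted p under 0.05, and voom (limma's method for reads, with a weight for each value's precision) on the whole reads called 13 higher and 0 lower, where it called 20.5% and 7.98% of all tested loci. With no filter on low values all 16 calls were lost, and 1 other chloroplast locus was called higher, against 0.802% of all 32678 loci. The share of higher calls was near the 18.3% of all tested loci. Both 35S:TEM1 samples lay above both WT samples at 41 of the 72 loci, or 56.9%, against 47.4% of all tested loci. Both lay below at 2 loci, psaJ and rpl32, against 20.7% of all tested loci. The median difference of the 72 was 0.48, which is 0.36 above the median of all tested loci, and 0.37 above it when samples were set to equal medians. It was 0.30 without 35S:TEM1 replicate 2. Of the 72, 12 had a WT mean under 1 and entered the test through their level in 35S:TEM1, and 3 of these were among the 16 called. Without 35S:TEM1 replicate 2 the calls were 10 higher and 2 lower, and without replicate 1 they were 27 and 0. Without WT replicate 1 they were 13 and 2, and without WT replicate 2 they were 25 and 0.

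Genes of photosystem II, the complex that splits water, held 74.3 and 186 RPM in 35S:TEM1 replicates 1 and 2 and 55.4 and 53.1 in WT. No other gene group had as large a gap between the 35S:TEM1 samples in RPM, although as a ratio it was 2.5 here and 2.72 for Rubisco. The group held 1499 and 5167 reads in 35S:TEM1 replicates 1 and 2, many of them at 1 locus given below. All 15 loci assigned to it were tested, 3 were called higher (20.0%, against 18.3% of all tested loci), and 12 did not pass. The most abundant was ATCG00020, with the shared length of psbA and psbD, the genes for the D1 and D2 reaction centre proteins. It had 38.2 and 122 RPKM in 35S:TEM1 and 29.5 and 25.4 in WT, from 818, 3603, 952 and 651 reads in the same order. Replicate 2 held 3.20 times the level of replicate 1, and the difference of 1.29 ± 0.48 SE did not pass (limma adjusted p = 0.0971). It was 0.47 without replicate 2 and 2.12 without replicate 1, where it passed (adjusted p = 0.00194). ATCG00270, of the same length, had 4.99 and 8.53 against 2.54 and 2.65. It was called higher at 1.07 ± 0.22 (adjusted p = 0.0172). Both genotypes were separate at each of these loci, but the 35S:TEM1 samples were far apart.

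The inner antenna genes had the same order of samples. psbC, for CP43, had 6.24 and 12.1 RPKM in 35S:TEM1 and 4.72 and 5.04 in WT (0.73 ± 0.26, adjusted p = 0.0898). psbB, for CP47, had 6.85 and 10.8 against 5.19 and 5.10 (0.65 ± 0.19, adjusted p = 0.0545). Neither passed, although both 35S:TEM1 samples lay above both WT samples at each. Among the small genes, psbN, for an assembly factor of the reaction centre, was called higher with 8.63 and 14.4 against 4.73 and 4.71 (1.09 ± 0.22, adjusted p = 0.0154). psbJ, for a small membrane subunit, was called with 13.3 and 17.0 against 8.55 and 8.76 (0.73 ± 0.13, adjusted p = 0.0107), but it did not pass with voom or when 35S:TEM1 replicate 2 was left out. psbM, another small subunit, had a lower mean in 35S:TEM1, with 4.72 and 5.48 against 5.01 and 11.1, and the samples overlapped (-0.48 ± 0.31, adjusted p = 0.283). At all 15 loci replicate 2 of 35S:TEM1 exceeded replicate 1, by 1.03 to 3.92 times. The median difference of the group was 0.65, and 0.35 without replicate 2.

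Photosystem I, which reduces ferredoxin, showed both orders of the genotypes, and its psaJ had the highest RPKM of the chloroplast averaged over the 4 samples, although ATCG00020 held the most reads in each library. psaJ, for a small membrane subunit, had 53.2 and 63.9 RPKM in 35S:TEM1 and 73.5 and 68.4 in WT. Both 35S:TEM1 samples were thus the lower ones, with a mean of 58.6 ± 7.58 against 71.0 ± 3.61 (SD, n = 2 each), and the difference of -0.28 ± 0.11 SE did not pass (limma adjusted p = 0.108). The genes of the reaction centre proteins had the reverse order. psaB had 3.62 and 6.36 against 1.97 and 2.33 and was called higher (0.89 ± 0.23, adjusted p = 0.0343). psaA had 2.51 and 5.86 against 1.47 and 1.38 and just missed the threshold (1.02 ± 0.30, adjusted p = 0.0535), while voom on whole reads called it (adjusted p = 0.0353). The call of psaB did not hold when either 35S:TEM1 replicate 2 or WT replicate 1 was left out, nor with equal medians or quantile normalization.

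In the cytochrome b6f complex, which links the photosystems, petA was called higher. This gene for cytochrome f had 6.43 and 5.38 RPKM in 35S:TEM1 and 2.73 and 3.70 in WT (0.72 ± 0.15, limma adjusted p = 0.0204), and here replicate 1 was the higher of the 35S:TEM1 samples. The call of petA was lost without 35S:TEM1 replicate 1. petB, for cytochrome b6, did not pass, with 2.60 and 7.05 against 2.49 and 3.13. The short petN had 2.202 and 13.6 against 1.83 and 3.22, from 4 and 34 reads in 35S:TEM1, and its difference of 0.98 ± 0.65 was not past the threshold either (adjusted p = 0.303).

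The ATP synthase genes had a median difference of 0.26, the lowest of the named gene groups. atpB, for the catalytic beta subunit, had 15.1 and 16.3 RPKM in 35S:TEM1 and 14.9 and 16.6 in WT, from 456 to 679 reads per library. Its difference was -0.00 ± 0.10 SE (limma adjusted p = 0.987), and atpE, for the epsilon subunit, had 0.02 ± 0.09. The samples of the genotypes overlapped at both loci, and the means of atpB were 15.7 ± 0.862 and 15.75 ± 1.25 (SD, n = 2 each). Of the 4 loci 1 was called higher (25.0%, against 18.3% of all tested loci). This was atpI, for a membrane subunit, at 2.71 and 2.54 against 1.32 and 1.66 (0.55 ± 0.14, adjusted p = 0.0336). That call was lost without either 35S:TEM1 replicate, without WT replicate 1, with equal medians and with voom. atpA, for the alpha subunit, had 4.84 and 7.999 against 3.69 and 4.65 and did not pass.

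rbcL, for the large subunit of Rubisco, the enzyme that fixes carbon dioxide, had the 35S:TEM1 samples on either side of WT. It had 16.2 and 44.2 RPKM in 35S:TEM1 and 19.8 and 18.4 in WT. Replicate 1 lay below both WT samples and replicate 2 above both, from 472 and 1768 reads. The difference of 0.47 ± 0.40 SE did not pass (limma adjusted p = 0.418). It was -0.22 without 35S:TEM1 replicate 2 and 1.17 without replicate 1, where it passed (adjusted p = 0.00628).

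Genes of the NADH dehydrogenase-like complex, which takes part in cyclic electron flow, were low. All 8 loci above 0 had a higher mean in 35S:TEM1, a share that was not counted over all loci. Of these 8, 3 reached the tested level. In limma 0 were called, with 0 at an unadjusted p under 0.05, and voom called 0. ndhF, for a membrane subunit, had 0.243 and 0.353 RPKM in 35S:TEM1 compared with 0.0733 and 0.129 in WT, from 11, 22, 5 and 7 reads.

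**Figure D3:**
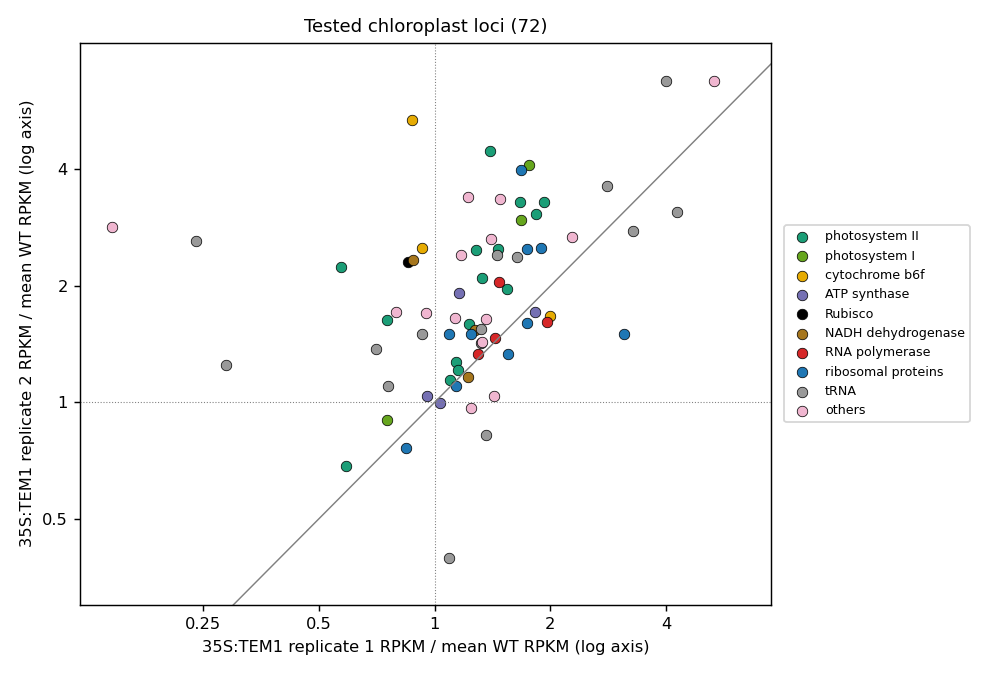
Ratio of each 35S:TEM1 sample to the mean of both WT samples for the 72 tested chloroplast loci, replicate 1 on the horizontal and replicate 2 on the vertical axis (both log axes), coloured by gene group. The solid line marks equal ratios and dotted lines mark 1. Points of photosystem II lie above the solid line, as replicate 2 exceeded replicate 1 at all 15 of its loci, while atpB and atpE lie near 1 on both axes.

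The genes of the plastid-encoded RNA polymerase had 35S:TEM1 replicates near each other, with a median ratio of 1.02. rpoB, for its beta subunit, had 7.87 and 8.06 RPKM in 35S:TEM1 and 4.41 and 6.52 in WT, from 432 to 721 reads. The WT samples differed more than the 35S:TEM1 samples, and the difference of 0.49 ± 0.17 SE did not pass (limma adjusted p = 0.077), although voom called it (adjusted p = 0.0408). Both 35S:TEM1 samples lay above both WT samples at all 4 rpo loci, against 47.4% of all tested loci, but rpoA and rpoC2 had a WT mean under 1 and reached the tested level through 35S:TEM1. Of the 4, 0 were called by limma, with 3 at an unadjusted p under 0.05. Voom called rpoC1 and rpoB. Their median of 0.47 was 0.38 without 35S:TEM1 replicate 2. rpoB, rpoC1, rpoC2 and accD belong to the genes known from tobacco to be transcribed largely by the nuclear-encoded polymerase. accD, for a subunit of acetyl-CoA carboxylase of fatty acid synthesis, lay under the tested level at 0.405 and 0.441 against 0.0896 and 0.0847, from 12, 18, 4 and 3 reads.

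Chloroplast ribosomal protein genes had 10 tested members, 3 called higher and 0 lower. rpl16 had 8.38 and 11.1 RPKM in 35S:TEM1 and 3.79 and 5.08 in WT (0.98 ± 0.17, limma adjusted p = 0.0107), although it did not pass when 35S:TEM1 replicate 2 was left out. rps14 was also called, at 1.19. The call of rps14 was the least stable of the 16, as it held in 6 of 15 alternatives. rpl32 had the opposite order, with 11.5 and 10.4 against 12.0 and 15.4, and did not pass (-0.29 ± 0.13, adjusted p = 0.163). The medians of the group with and without 35S:TEM1 replicate 2 were 0.46 and 0.51, close to each other.

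The loci of tRNA length had few reads. Of 20 above 0, 15 were tested and 4 called higher (26.7%, against 18.3% of all tested loci), and 0 were lower. ATCG00010 had 9.50 and 12.3 RPKM in 35S:TEM1 and 2.25 and 4.54 in WT, from 14, 25, 5 and 8 reads (1.48 ± 0.26, limma adjusted p = 0.0106). ATCG00200 had 2.09 and 3.55 against 0.463 and 0.583, from 3, 7, 1 and 1 reads (1.30 ± 0.21, adjusted p = 0.00821). The genotypes did not overlap at these loci, with at most 25 reads behind a value. Of the 4 called, ATCG00200 and ATCG00620 had a WT mean under 1 and entered the test through their level in 35S:TEM1. With the read numbers themselves, voom called ATCG00010 (adjusted p = 0.0308) but not ATCG00200 (adjusted p = 0.0553), ATCG00320 (0.0868) or ATCG00620 (0.0879). ATCG00320 had 4.02 and 3.402 against 1.33 and 1.12, and ATCG00620 had 3.35 and 2.43 against 0.444 and 1.12.

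Some loci could be given no gene. ATCG00510, whose length psaI, petG and rpl36 share, had 1.74 and 2.21 RPKM in 35S:TEM1 and 0.288 and 0.363 in WT, from 4, 7, 1 and 1 reads, and was called at 1.16 ± 0.16 (limma adjusted p = 0.00464). It too entered the test through its level in 35S:TEM1. ATCG00810, with the shared length of petD and rpl22, was called at 0.92 ± 0.13. ATCG00140, which could be atpH or psaC, came next in level after psaJ, ATCG00020 and rbcL, with 15.5 and 29.4 against 8.68 and 13.5 (0.92 ± 0.31, adjusted p = 0.0766). Among the remaining named genes, clpP, for the catalytic subunit of a protease, was called with 11.6 and 12.5 against 9.12 and 8.34 (0.42 ± 0.10, adjusted p = 0.0268), which was lost without 3 of the 4 samples in turn. ycf1, for a protein of the inner envelope import machinery, had 0.185 and 0.141 against 0.0920 and 0.116 and was not tested.

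The reads counted at mitochondrial loci came almost wholly from 4 loci, of which 3 were called higher in 35S:TEM1. With 104 of 146 loci listed at 0, this does not describe all transcripts of the genome. Of 42 loci above 0, 8 reached the tested level, of which 4 were called higher, 0 lower, and 4 did not pass. The background of higher calls was 18.3% of all tested loci. Voom called 3 higher and 0 lower, and 6 of the 8 had an unadjusted p under 0.05 in limma. The 8 loci had a median difference of 0.85, which was 0.73 above that of all tested loci, also 0.74 above it with equal sample medians. Both 35S:TEM1 samples were above both WT samples at 6 of the 8, against 47.4% of all tested loci, and 1 of the 6, atp4, had a WT mean under 1 and reached the tested level through 35S:TEM1. Replicate 2 exceeded replicate 1 at all 8 in 35S:TEM1 and also at all 8 in WT. Higher calls numbered 2 when 35S:TEM1 replicate 2 was left out, and also 2 when WT replicate 1 was.

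ATMG01390, which has the length of the small-subunit rRNA gene rrn18, held 43.2% to 46.0% of all mitochondrial reads in the 4 samples. It had 34.3 and 55.0 RPKM in 35S:TEM1 and 17.8 and 23.2 in WT, from 1339, 2957, 1046 and 1083 reads. The genotypes did not overlap, and the difference of 1.06 ± 0.23 SE passed (limma adjusted p = 0.0207). rrn5, the 5S rRNA at ATMG01380, had 17.6 and 30.2 against 6.96 and 14.4 and did not pass (1.12 ± 0.35, adjusted p = 0.0633). Its WT samples differed by 2.07 times, from 25 and 41 reads.

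The highest level per length belonged to ATMG00030, with 48.9 and 79.9 RPKM in 35S:TEM1 and 22.0 and 31.1 in WT (1.23 ± 0.25 SE, limma adjusted p = 0.0177). Its length is that of 4 open reading frames of the reference, so it stays without a gene. ATMG00020 had 20.4 and 38.3 against 10.6 and 13.2 (1.18 ± 0.27, adjusted p = 0.0261), and its length of 2568 bases matched no reference gene. At both loci the genotypes did not overlap. Together ATMG00030, ATMG01390, ATMG00020 and ATMG01380 held 2760 and 6508 mitochondrial reads in 35S:TEM1 and 2118 and 2183 in WT. In RPM they were 2.32-fold higher in 35S:TEM1, and all other mitochondrial loci together were 1.62-fold higher, from 164, 341, 169 and 169 reads. The call of ATMG01390 was lost without 35S:TEM1 replicate 2 and that of ATMG00020 without WT replicate 1, and with a robust variance only 1 of the 4 calls was left.

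Protein genes of the mitochondrion had few reads. cox1, for the catalytic subunit of cytochrome c oxidase, had 0.657 and 1.18 RPKM in 35S:TEM1 compared with 0.332 and 0.366 in WT, from 21, 52, 16 and 14 reads. cox2, for its second subunit, had 0.316 and 1.06 against 0.420 and 0.688, and the genotypes overlapped. ccmB, for a transporter of cytochrome c maturation, had 0.559 and 0.579 against 0.265 and 0.200, from 7, 10, 5 and 3 reads. All 3 lay under the tested level. atp4, for a subunit of the ATP synthase, was tested with 1.03 and 1.93 against 0.681 and 0.715 and did not pass (0.52 ± 0.21, limma adjusted p = 0.115). orf149 at ATMG00660, an open reading frame, had 2.64 and 3.92 against 1.61 and 1.84 and was called (0.64 ± 0.18, adjusted p = 0.0436), but in only 1 of the 4 settings that leave out a sample. ATMG00665 had 0 and 3.27 RPKM in 35S:TEM1 and 1.49 and 1.88 in WT. The smallest length its values allow is 22 bases, at which they stand for very few reads. ATMG00560 has the shared length of atp6 and rpl2 and held 3 reads in 35S:TEM1 replicate 2, 1 in WT replicate 1 and 0 in the others. No locus with reads had the length of nad1, nad5 or matR. This does not show that these genes had no reads, because 11 mitochondrial loci with reads matched no reference gene by length.

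**Figure D4:**
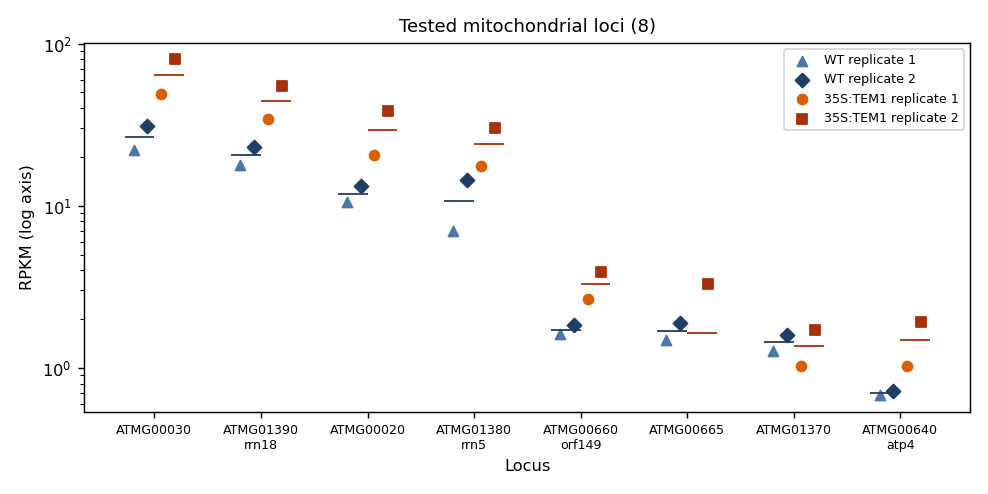
RPKM (log axis) of the 8 tested mitochondrial loci in each sample, with short lines for the mean of each genotype; ATMG00665 was at 0 in 35S:TEM1 replicate 1, which is not drawn. At the 4 loci on the left both 35S:TEM1 samples lie above both WT samples, and levels fall from 79.9 for ATMG00030 to about 1 for atp4.

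Noise was large at these levels. Of the 22 chloroplast loci above 0 with a mean RPKM under 1, 10 were at 0 in a sample, and of 34 such mitochondrial loci 20 were. At most 3 reads in every sample were behind 7 chloroplast and 19 mitochondrial loci. Between the WT samples, loci with a mean of 1 to 5 RPKM differed by a median of 0.427 on the log2 RPKM scale in the chloroplast (43 loci) and of 0.246 in the nucleus (4783 loci). The chloroplast loci of this range rested on a median of 16.5 reads and the nuclear ones on 90.5. Counting error alone gives a median difference of 0.380 for the former and 0.146 for the latter. The WT replicates of this range thus differed by little more than counting error in the chloroplast. At 5 to 20 RPKM they differed by 0.490, where counting error alone gives 0.251.

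The 35S:TEM1 replicates differed by more than the WT replicates at 1 to 5 and at 20 to 100 RPKM, and by less at 5 to 20 RPKM. At 1 to 5 RPKM their median absolute difference was 0.538 against 0.315 from counting, and at 5 to 20 RPKM it was 0.390 against 0.214. The 3 chloroplast loci of 20 to 100 RPKM differed by a median of 1.44 against 0.0504 from counting, with 753 reads behind the median locus. Nuclear loci of the same level differed by 0.0864. Replicate 2 exceeded replicate 1 at 56 of 72 tested chloroplast loci, while over all tested loci it did so at 42.0%. WT replicate 2 exceeded WT replicate 1 at 50 of the 72, against 53.4% of all tested loci. The 3 mitochondrial loci of 20 to 100 RPKM differed by 0.708 in 35S:TEM1 and by 0.384 in WT, where counting error alone gives 0.0352 and 0.0480. At these abundant organelle loci the median gap between the 35S:TEM1 pools was thus many times the counting error. The gap was not large at each of them, as psaJ had a ratio of replicate 2 to replicate 1 of 1.2.

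**Figure D5:**
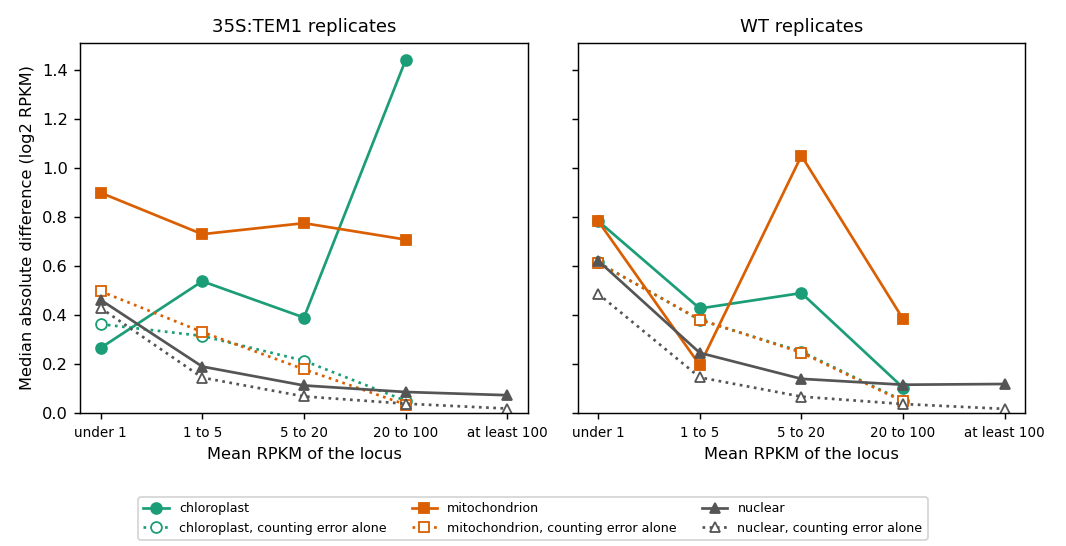
Median absolute difference of log2 RPKM between the 2 samples of a genotype, by mean RPKM of the locus, for chloroplast, mitochondrial and nuclear loci above 0 in all samples (solid lines), with the value that counting error alone gives (dotted lines). The mitochondrial point at 5 to 20 RPKM is 1 locus. Nuclear loci fall towards 0.0733 in 35S:TEM1 at high levels, whereas the 3 chloroplast loci of 20 to 100 RPKM reach 1.44 in 35S:TEM1 and 0.104 in WT.

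Nuclear genes that serve the organelle genomes did not move as 1 block. Of 35 genes for organelle transcription and RNA processing all were tested, 4 were higher, 4 lower and 27 did not pass, where 18.3% and 7.37% of all tested loci were called. Their median was -0.10, against 0.12 for all tested loci. The sigma factor gene SIG4 had 50.4 and 49.2 RPKM in 35S:TEM1 and 29.3 and 29.6 in WT (0.74 ± 0.08 SE, limma adjusted p = 0.00193). SIG5, for a sigma factor induced by stress and blue light, had 5.93 and 4.87 against 3.28 and 1.78 (0.89 ± 0.22, adjusted p = 0.031). HCF173, needed for translation of psbA mRNA, rose at 0.48 ± 0.12, and HCF107, needed for psbH transcripts, at 0.51 ± 0.09. All 4 lower genes encode proteins attached to the plastid-encoded polymerase, where 4 of 13 were lower and 0 higher. PTAC14 had 27.9 and 26.6 against 38.8 and 39.5 (-0.51 ± 0.08, adjusted p = 0.00759), and FLN1, TRXZ and PTAC7 had -0.49, -0.43 and -0.31. Of the 3 phage-type polymerase genes 0 passed in limma, 0 had an unadjusted p under 0.05 and 0 passed in voom. Leaving out either 35S:TEM1 sample left 1 higher call, with 1 lower call without replicate 1 and 0 without replicate 2. Without WT replicate 1 there were 9 lower calls, and without WT replicate 2 there was 1.

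Nuclear-encoded subunits of the same photosynthetic complexes were lower or not changed past the threshold. Of 30, 12 were lower, 0 higher and 18 did not pass, with a median of -0.26, while the background of lower calls was 7.37%. PSAN of photosystem I had 666 and 634 RPKM in 35S:TEM1 and 1078 and 982 in WT (-0.66 ± 0.08 SE, limma adjusted p = 0.00351). PETC, the Rieske protein of the b6f complex, had 1492 and 1355 against 1967 and 2050 (-0.50 ± 0.08, adjusted p = 0.00951), and PSBQ-1 of photosystem II had -0.44 ± 0.08. For photosystem I 5 of 12 nuclear subunits were lower, while the 3 chloroplast loci had 1.02 (psaA, not past the threshold), 0.89 (psaB, called) and -0.28 (psaJ, not past it). For photosystem II 4 of 9 were lower, where the 15 chloroplast loci had a median of 0.65. The nuclear counts were sensitive to single samples and to scaling, with 1 lower call left without either 35S:TEM1 sample, 3 with quantile normalization and 19 with equal medians. No test of the difference between nuclear and chloroplast subunits was made.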

How the data were processed

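RNA was sequenced from 4 pooled whole-plant samples after DNase treatment, per the labels' protocols. The authors deposited RPKM values for 32678 loci. TAIR10, STAR, Cuffdiff 2.2.1, FastQC and bcl2fastq 1.8.4 are listed, per the submitters' processing notes, without a role or order. The counter, the annotation, the strand setting and how repeated reads were handled are not stated in any source used here. Each library total is the one most often implied by nuclear loci of low value if these hold a single read over their reference exon length, and locus lengths are the smallest, up to 20000 bases, at which all 4 values were whole, or 2 times that for 3 loci. These smallest reads summed to 98.1% of each total. Names, lengths and repeated words came from RefSeq (TAIR10.1), so no coordinates are printed. Values were tested as log2(RPKM + 1) by the 2-sided moderated test of limma 3.58.1, run in R 4.3.3 with the variance trended on level, with Benjamini-Hochberg adjustment over 17746 loci. The fit was tested on simulated data. Named loci were, per genome, the 6 of highest mean RPKM, up to 8 called in each direction with the largest change and no overlap, and a list of core genes; further examples of each gene group were chosen after their values were seen. Members and lists were chosen with earlier results of these data known. MORF2, HCF145, PIP2-4 and ML1 were dropped from the lists, as the reference did not name them as such. Alternatives were pseudocounts, filters, scalings, variance models, a replicate block, leaving out each sample and, chosen after seeing the data, voom on the whole reads. The values of 1 locus are not reported here.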

Additional observations from a re-analysis of the deposited data

How the results depend on the processing

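The higher direction held for the medians of both genomes, except that the mitochondrial median was 0.00 with no filter on low values, where 104 of the 146 loci are at 0. The chloroplast median was then 0.21, against 0.48. Leaving out 1 sample gave 10 to 27 higher and 0 to 2 lower chloroplast loci, 2 to 4 higher and 0 to 1 lower mitochondrial loci, and medians of 0.30 to 0.63 and 0.57 to 1.12. The share differences in points of summed RPKM then ranged from 0.0102 to 0.0465 (chloroplast, 0.0283 with all samples) and from 0.00793 to 0.0204 (mitochondrion, 0.0142). Higher chloroplast calls numbered 1 with no filter, at a locus not among the 16 called with the filter. They numbered 6 at a mean RPKM of at least 5, where fewer loci were tested, and 1 locus was lower with equal medians. Higher mitochondrial calls numbered 0 with no filter, 2 with equal medians or quantile normalization and 1 with robust variance. The cause of these changes was not tested. For the organelle transcription list the higher and lower counts were 2 and 11 with equal medians, and 1 to 4 and 0 to 9 when 1 sample was left out. For the shared complexes the lower counts were 19 with equal medians, 3 with quantile normalization and 1 to 13 without 1 sample. Higher counts there were 1 with quantile normalization, with the replicate block and with voom, and 0 to 1 without 1 sample. With the replicate number as a block, 34 chloroplast loci were higher, against 16, and 5 mitochondrial ones, against 4. The deviations of same-numbered samples correlated at 0.318 over all tested loci and -0.072 over the 80 organelle loci. The labels do not say what a number shares, so the samples are not taken as paired. Of 25 named loci tested, 15 lost their call with no filter. No passing call changed sign, but rbcL, not past the threshold at 0.47, was -0.22 without 35S:TEM1 replicate 2. ATMG00665, whose values stand for very few reads, went from -0.38 to 0.67 without 35S:TEM1 replicate 1 and to -1.42 without replicate 2. atpE, at 0.02, was -0.13 with equal medians, -0.12 with quantile normalization and -0.04 without WT replicate 1. With 2 samples per genotype and few reads at most loci, a locus that did not pass is not shown to be equal.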
